A study of Homo sapiens with 4 samples.

Results

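ZEB1, ZEB2, SNAI1, SNAI2, GRHL1, GRHL2, ESRP1, ESRP2, ELF3 and KLF5 are transcription and splicing factors that set epithelial or mesenchymal identity. They were taken by gene symbol, but the set was chosen with earlier results of these data known. All 10 were among the 17634 genes of the table and the 15781 genes tested. The set holds 4 mesenchymal repressors (ZEB1, ZEB2, SNAI1 and SNAI2) and 6 epithelial factors (GRHL1, GRHL2, ESRP1, ESRP2, ELF3 and KLF5). Total RNA was sequenced from PC-3-RRM2 cells (n = 2 libraries) and PC-3-EV cells (n = 2 libraries) to find what RRM2, the regulated subunit of ribonucleotide reductase, changes in prostate cancer cells. PC-3 is an androgen-independent line of prostate cancer that was grown out of a bone metastasis. The PC-3-RRM2 cells were a stable line made with a lentiviral RRM2 vector and kept under puromycin, and the PC-3-EV cells carried the empty vector. One such line was compared with its control, the sources do not say whether either line was clonal, and the labels leave unstated whether replicate libraries were grown as separate cultures. The spread on which the p-values rest may therefore be technical.

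ZEB and SNAI proteins are zinc-finger repressors that bind E-box sequences in the promoters of epithelial genes such as CDH1, the gene of E-cadherin. Grainyhead-like proteins (GRHL), the ETS factor ELF3 and the Krüppel-like factor KLF5 activate genes of epithelial junctions and differentiation, and ZEB1 and GRHL2 are known to repress each other. ESRP1 and ESRP2 are RNA-binding proteins that select the epithelial exons of transcripts such as FGFR2, CD44 and CTNND1. PC-3 cells are known to express both keratins and vimentin and therefore hold epithelial and mesenchymal programs in the same culture.

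Promoter windows of 300 bases, from 250 bases before to 50 bases after a start site, were read from RefSeq (GRCh38.p14) for 5 of the 10 genes, 12 windows in all. The 12 windows were searched on both strands for CAGGTG, an E-box that ZEB and SNAI factors can bind, and for AACCGGTT, a grainyhead-like site (neither motif is part of the other). The E-box stood in 3 of the 12 windows, against 20.6% of 35116 windows of all genes. The grainyhead-like site stood in 0 of the 12, against 0.134% of all windows. Windows are printed for GRHL1 and KLF5, whose RNA passed the thresholds in opposite directions, and for ELF3 and ZEB1, which hold the E-box. Capitals mark the E-box or its reverse complement. The ZEB1 window shown is 1 of 7 for that gene, of which 2 hold an E-box, and the KLF5 window is 1 of 2. The mature miR-205-5p is printed because it is a known repressor of ZEB1 and ZEB2 and its host transcript differed between the groups; capitals mark its seed, bases 2 to 8. A match to these letters is a description of the sequence only.
GRHL1 promoter, chr2:9951443-9951742, plus strand: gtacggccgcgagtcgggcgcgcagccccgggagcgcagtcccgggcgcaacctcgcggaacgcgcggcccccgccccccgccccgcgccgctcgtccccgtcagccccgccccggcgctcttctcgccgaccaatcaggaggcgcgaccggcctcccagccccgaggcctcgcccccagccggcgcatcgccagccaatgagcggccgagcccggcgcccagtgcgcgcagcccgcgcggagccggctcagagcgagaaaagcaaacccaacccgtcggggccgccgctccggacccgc
KLF5 promoter, chr13:73054726-73055025, plus strand: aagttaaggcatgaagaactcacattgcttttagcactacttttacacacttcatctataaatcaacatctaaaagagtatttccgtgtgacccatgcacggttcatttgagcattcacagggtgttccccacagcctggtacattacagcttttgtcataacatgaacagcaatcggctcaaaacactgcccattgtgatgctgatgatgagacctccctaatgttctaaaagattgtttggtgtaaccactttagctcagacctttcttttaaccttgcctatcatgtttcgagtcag
ELF3 promoter, chr1:202010337-202010636, plus strand: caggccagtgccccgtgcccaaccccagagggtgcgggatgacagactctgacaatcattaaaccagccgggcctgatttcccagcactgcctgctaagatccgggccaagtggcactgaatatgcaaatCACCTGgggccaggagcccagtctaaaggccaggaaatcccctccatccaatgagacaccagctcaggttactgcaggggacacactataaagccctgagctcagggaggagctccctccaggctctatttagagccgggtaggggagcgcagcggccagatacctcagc
ZEB1 promoter, chr10:31318966-31319265, plus strand: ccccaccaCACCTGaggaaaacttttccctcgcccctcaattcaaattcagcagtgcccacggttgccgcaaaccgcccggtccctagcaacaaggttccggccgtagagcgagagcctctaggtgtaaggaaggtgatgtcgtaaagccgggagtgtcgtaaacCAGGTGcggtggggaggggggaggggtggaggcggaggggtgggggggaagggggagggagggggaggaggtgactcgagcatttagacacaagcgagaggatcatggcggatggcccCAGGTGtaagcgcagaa
hsa-miR-205-5p, chr1:209432166-209432187, plus strand: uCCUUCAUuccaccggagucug

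RRM2 was measured at 96.6 and 98.8 CPM (counts relative to library size after TMM scaling) in the PC-3-RRM2 libraries, against 21.8 and 20.8 CPM in the PC-3-EV libraries. Its log2 fold change of 2.20 (SE 0.0848, adjusted p = 2.53e-06, edgeR quasi-likelihood test) went with the labels. Depth was 30149181 and 30419769 estimated counts in PC-3-RRM2, against 37801301 and 30778321 in PC-3-EV. Pearson's r of log2 CPM across genes was 0.991 within the PC-3-RRM2 pair, 0.995 within the PC-3-EV pair and 0.954 to 0.957 between groups. CTNNA1, which PC-3 cells are known to lack, stood at 0.527 CPM in both PC-3-RRM2 libraries, against 0.529 and 0.490 CPM in the PC-3-EV libraries. The epithelial keratin KRT18 averaged 116 ± 6.91 CPM in PC-3-RRM2 and 106 ± 4.93 CPM in PC-3-EV (SD, n = 2 each), and KRT8 averaged 116 ± 24.4 CPM in PC-3-RRM2 and 115 ± 12.3 CPM in PC-3-EV. Of 9 leukocyte markers 4 were in the table and 3 were tested, with a summed level of 92.9 to 108 CPM in PC-3-RRM2 and 103 to 108 CPM in PC-3-EV, nearly all of it CD68, and 1 (CSF1R, with 18 and 11 counts in PC-3-RRM2 and 3 and 0 in PC-3-EV) was called higher. PTPRC, the defining leukocyte gene, was at 0.593 and 0.560 CPM in PC-3-RRM2 and 0.317 and 0.294 CPM in PC-3-EV. Of 8 fibroblast markers 7 were in the table and 5 were tested, and their sum was 71.7 to 97.6 CPM in PC-3-RRM2 and 90.8 to 107 CPM in PC-3-EV, with 1 called higher and 2 lower. The 6 endothelial markers were all in the table and 3 were tested, and their sum was 31.0 to 31.6 CPM in PC-3-RRM2 and 58.7 to 60.2 CPM in PC-3-EV. All 3 were called lower (PECAM1, KDR and ESAM), while CDH5 had 6 and 9 counts in the PC-3-RRM2 libraries and 0 in the PC-3-EV libraries. The part of these markers in the results was not tested.

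Calls followed the thresholds stated in the study, a Benjamini-Hochberg adjusted p below 0.05, here over all genes tested, together with a change of more than 1.5-fold. Of the 10 factors, 5 were called higher in PC-3-RRM2 cells (SNAI1, SNAI2, GRHL1, GRHL2 and ESRP1), 1 was called lower (KLF5) and 4 were not called (ZEB1, ZEB2, ESRP2 and ELF3). Of all genes tested, 18.2% were called, 9.97% higher and 8.19% lower. Higher calls came from both sides of the set, as 2 of 4 mesenchymal repressors and 3 of 6 epithelial factors were called higher. The median log2 fold change was 0.80 over the repressors and 0.74 over the epithelial factors, beside 0.00 over all genes tested. The CPM ranges of the groups did not overlap for any of the 10 factors, which was also true of 69.0% of all genes tested. In these bulk libraries, fewer cells that express a gene and less RNA per cell cannot be told apart.

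**Figure D1:**
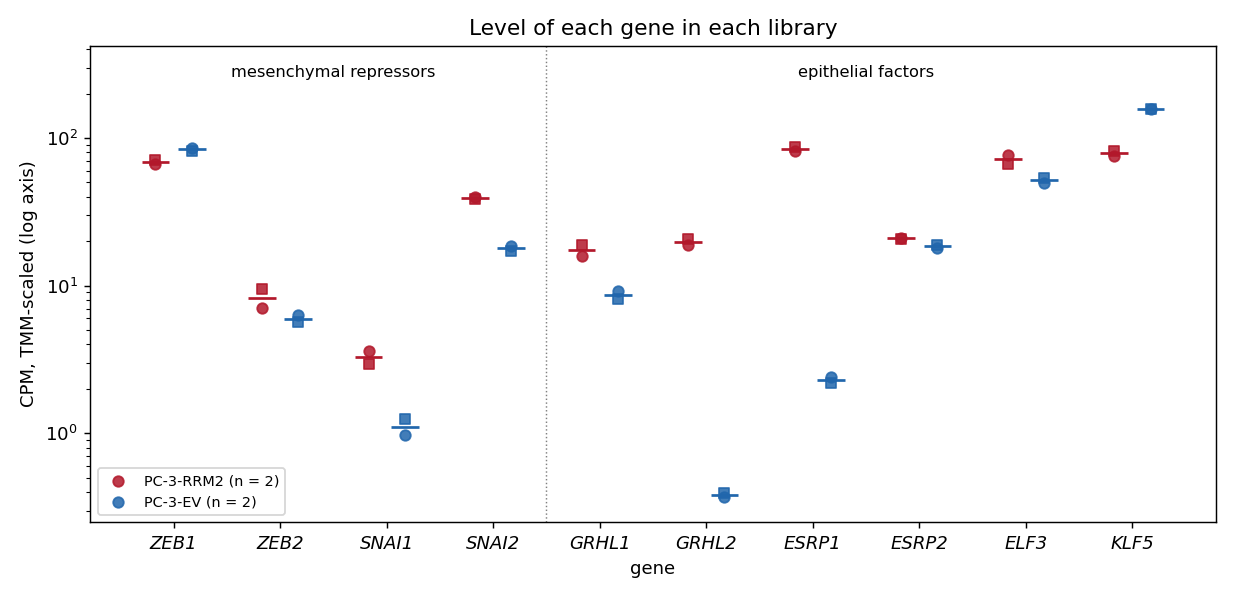
Level of each of the 10 genes in CPM on a log axis, with circles for replicate 1, squares for replicate 2 and bars for the group mean (n = 2 each). GRHL2 and ESRP1 stand apart from the others, with the PC-3-RRM2 libraries at 19.0 and 20.7 CPM for GRHL2 and the PC-3-EV libraries at 0.370 and 0.392 CPM.

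Among the mesenchymal repressors, the SNAI genes were higher in PC-3-RRM2 cells, while neither ZEB gene was called. SNAI2 (SLUG), a repressor of CDH1 (chr8:48917681-48921441), was at 39.7 and 38.8 CPM in the PC-3-RRM2 libraries, against 18.7 and 17.1 CPM in the PC-3-EV libraries. The PC-3-RRM2 libraries were both above the PC-3-EV libraries, and the log2 fold change was 1.13 (SE 0.0990, adjusted p = 0.000141, edgeR). SNAI1 (SNAIL), the repressor of the same E-boxes that acts early in epithelial-mesenchymal transition (chr20:49982976-49988884), was scarce in both lines. It had 109 and 90 counts (3.59 and 2.97 CPM) in the PC-3-RRM2 libraries, against 37 and 38 counts (0.978 and 1.24 CPM) in the PC-3-EV libraries. Its groups were also separate, with a log2 fold change of 1.57 (SE 0.232, adjusted p = 0.00182, edgeR). SNAI1 lay at percentile 18.1 of all tested genes by mean level.

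ZEB1 (chr10:31318495-31529815), the repressor most often opposed to GRHL2 and ESRP1, was abundant in both lines and differed little. It was measured at 66.2 and 70.4 CPM in the PC-3-RRM2 libraries, against 86.1 and 81.6 CPM in the PC-3-EV libraries. Both PC-3-RRM2 libraries were below both PC-3-EV libraries, and the log2 fold change of -0.30 (SE 0.0798, adjusted p = 0.0238, edgeR) did not reach the fold threshold. The antisense gene ZEB1-AS1 overlaps its first part, at 307 and 328 estimated counts in the PC-3-RRM2 libraries and 444 and 354 in the PC-3-EV libraries. The strand setting of the counting is not given in the sources used here, so reads of the overlap could have been assigned to either gene. ZEB2 (chr2:144384375-144520392), its paralog, was at 7.01 and 9.56 CPM in the PC-3-RRM2 libraries, against 6.32 and 5.66 CPM in the PC-3-EV libraries. The groups did not overlap, yet the PC-3-RRM2 libraries differed from each other by more than the nearer of them differed from PC-3-EV. Its log2 fold change was 0.47 (SE 0.182, adjusted p = 0.0840, edgeR), and 1 library decided the call: ZEB2 was called at 0.67 (adjusted p = 0.00539, edgeR) without PC-3-RRM2 replicate 1 and was at 0.22 without PC-3-RRM2 replicate 2.

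Among the epithelial transcription factors, GRHL2 showed the largest difference and GRHL1 a smaller one. GRHL2, an activator of CDH1 and of claudin genes (chr8:101492439-101669725), had 576 and 628 counts in the PC-3-RRM2 libraries, against 14 and 12 counts in the PC-3-EV libraries. In CPM this was 19.0 and 20.7 in PC-3-RRM2 and 0.370 and 0.392 in PC-3-EV, so the gene was close to the floor of detection in control cells and at a middling level in PC-3-RRM2 cells. The log2 fold change was 5.69 (SE 0.187, adjusted p = 1.42e-06, edgeR), which ranked 68 of 15781 genes from the highest. GRHL1 (chr2:9951663-10002285), the paralog better known from epidermal desmosomes, was at 15.9 and 18.8 CPM in the PC-3-RRM2 libraries, against 9.25 and 8.11 CPM in the PC-3-EV libraries. The PC-3-RRM2 libraries were both higher, with a log2 fold change of 1.00 (SE 0.140, adjusted p = 0.00142, edgeR).

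KLF5 went the other way. This factor of basal and luminal prostate epithelium (chr13:73054976-73077543) was at 76.0 and 81.4 CPM in the PC-3-RRM2 libraries, against 157.8 and 157.4 CPM in the PC-3-EV libraries. It fell by 1.00 on the log2 scale (SE 0.0741, adjusted p = 6.80e-05, edgeR), and the 4 libraries formed separate pairs. ELF3 (chr1:202010562-202017188), an epithelium-restricted ETS factor, was at 77.1 and 67.0 CPM in the PC-3-RRM2 libraries, against 49.9 and 53.8 CPM in the PC-3-EV libraries. Both PC-3-RRM2 libraries were above both PC-3-EV libraries, but the 1.39-fold difference (log2 fold change 0.47, SE 0.0974, adjusted p = 0.00783, edgeR) lay under the fold threshold.

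The paralogs of the ESRP pair parted. ESRP1 (chr8:94641136-94707467) had 2474 and 2653 counts in the PC-3-RRM2 libraries, against 91 and 67 counts in the PC-3-EV libraries. Its levels were 81.5 and 87.5 CPM in PC-3-RRM2 and 2.41 and 2.19 CPM in PC-3-EV, and the log2 fold change of 5.19 (SE 0.118, adjusted p = 2.71e-07, edgeR) ranked 84 of 15781 genes. ESRP2 (chr16:68228547-68236234) was present in all libraries, at 21.0 and 20.8 CPM in PC-3-RRM2 and 18.1 and 18.8 CPM in PC-3-EV. The groups of ESRP2 were separate but close, and the log2 fold change of 0.18 (SE 0.102, adjusted p = 0.202, edgeR) did not pass the test. The end of ESRP2 overlaps that of NFATC3 on the other strand, with 1225 and 1167 estimated counts of NFATC3 in PC-3-RRM2 and 1273 and 1017 in PC-3-EV, so reads in the overlap could belong to either gene.

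**Figure D2:**
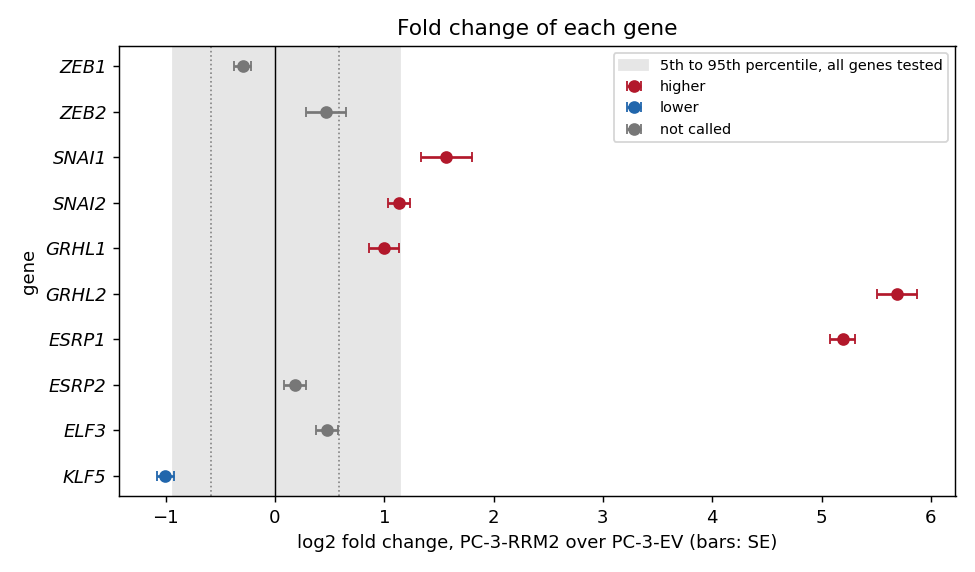
Log2 fold change of each gene, PC-3-RRM2 over PC-3-EV, with bars for the standard error. Grey shading spans the 5th to 95th percentile of all genes tested (-0.93 to 1.14) and dotted lines mark 1.5-fold. GRHL2 at 5.69, ESRP1 at 5.19 and SNAI1 at 1.57 lie above the shaded span, and KLF5 at -1.002 lies below it.

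Levels of different genes were compared per kilobase of the longest annotated transcript, in CPM per kb. The longest transcript need not be the one expressed, so the order of genes depends on this choice of length. In PC-3-RRM2 cells the order was led by ESRP1 (mean 22.2 CPM per kb) and KLF5 (22.1), whose ranges overlapped, and then ELF3 (14.4) and SNAI2 (13.9), whose ranges also overlapped. ZEB1 (10.9), ESRP2 (5.52), GRHL2 (3.79), GRHL1 (3.21), SNAI1 (1.95) and ZEB2 (0.865) followed, each separate from the next. In PC-3-EV cells KLF5 (44.2 CPM per kb) came first, followed by ZEB1 (13.4), ELF3 (10.4), SNAI2 (6.32), ESRP2 (4.86) and GRHL1 (1.61). SNAI1 (0.659), ZEB2 (0.625) and ESRP1 (0.604) could not be ranked against their neighbours in PC-3-EV, and GRHL2 (0.0728) came last. ESRP1 thus stood with KLF5 at the top of the order in PC-3-RRM2, and with SNAI1 and ZEB2 above GRHL2 alone in PC-3-EV.

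Within families, the balance of paralogs moved for GRHL and ESRP and little for ZEB and SNAI. ESRP1 made up 79.4% and 80.7% of the summed ESRP level per kb in the PC-3-RRM2 libraries, against 11.7% and 10.4% in the PC-3-EV libraries. GRHL2 made up 45.0% and 45.6% of the summed level of GRHL1, GRHL2 and GRHL3 in the PC-3-RRM2 libraries, against 3.82% and 4.65% in the PC-3-EV libraries. GRHL1 held 36.6% and 40.1% of that sum in PC-3-RRM2 and 92.7% and 93.2% in PC-3-EV. ZEB1 remained the main ZEB gene in each library, at 93.5% and 91.8% of the ZEB sum in PC-3-RRM2 and 95.4% and 95.7% in PC-3-EV, and SNAI2 the main SNAI gene, at 86.8% and 88.6% in PC-3-RRM2 and 91.9% and 89.1% in PC-3-EV. Set against ZEB1 in the same library, GRHL2 per kb was 0.343 and 0.352 of the ZEB1 level in PC-3-RRM2 and 0.00515 and 0.00575 of it in PC-3-EV. ESRP1 per kb was 2.03 and 2.05 times ZEB1 in PC-3-RRM2 and 0.0460 and 0.0442 times ZEB1 in PC-3-EV. The ratio of KLF5 to ELF3 was 1.38 and 1.70 in PC-3-RRM2 and 4.43 and 4.10 in PC-3-EV. These shares and ratios are descriptions that depend on the transcript lengths used, and they were not tested.

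**Figure D3:**
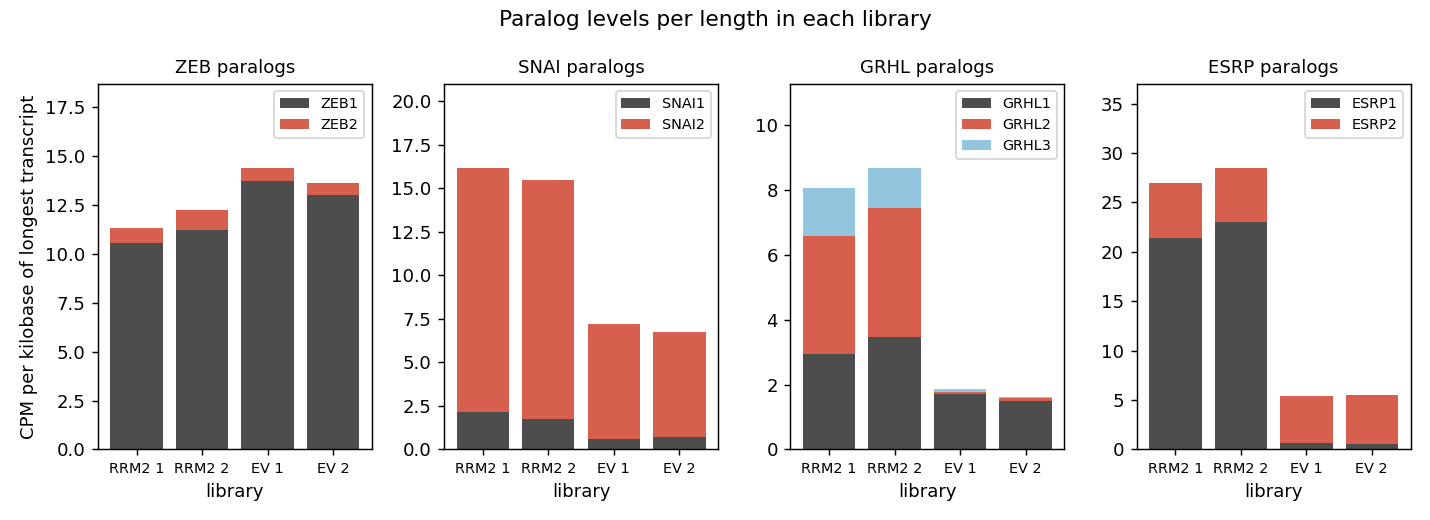
Stacked level of the paralogs in each library, in CPM per kb of the longest transcript, with a separate axis per family. ESRP1 fills 79.4% and 80.7% of the ESRP bar in the PC-3-RRM2 libraries and 11.7% and 10.4% in the PC-3-EV libraries, while ZEB1 fills 93.5% and 91.8% of the ZEB bar in the PC-3-RRM2 libraries and 95.4% and 95.7% in the PC-3-EV libraries.

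Of 16 other factors of epithelial fate in the table, all tested, 7 were called higher, 3 lower and 6 not called. The median of their log2 fold changes was 0.38. Higher calls made up 9.97% of all genes tested and lower calls 8.19%. GRHL3, the third grainyhead-like paralog, had 129 and 108 counts in the PC-3-RRM2 libraries, against 7 and 3 counts in the PC-3-EV libraries (log2 fold change 4.71, adjusted p = 5.24e-05, edgeR). The OVOL repressors, which are known to silence ZEB1, were also higher. OVOL2 had 68 and 56 counts in PC-3-RRM2 and 5 and 4 in PC-3-EV (log2 fold change 3.92), and OVOL1 had 114 and 111 counts in PC-3-RRM2 and 2 and 1 in PC-3-EV, a ratio of 84.5 with an exact 95% interval of 28.6 to 413 that covers counting error only. Both were scarce transcripts in PC-3-RRM2, below 4 CPM. EHF, an ETS factor of the ELF3 subfamily, was at 123 and 137 CPM in PC-3-RRM2 and 27.0 and 25.05 CPM in PC-3-EV (log2 fold change 2.32). The 3 genes called lower were FOXA1, SPDEF and KLF4, and the first of them, the pioneer factor of luminal prostate cells, was at 18.6 and 19.4 CPM in PC-3-RRM2 and 55.5 and 55.7 CPM in PC-3-EV (log2 fold change -1.55).

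Of 13 other EMT-inducing factors tested, 0 were called higher and 1 was called lower, with a median of -0.08. The exception was SOX9, also a factor of prostate progenitors, at 63.8 and 61.5 CPM in PC-3-RRM2 and 133.9 CPM in both PC-3-EV libraries (log2 fold change -1.10, adjusted p = 3.94e-05, edgeR). The 12 others lay between -0.39 and 0.40 on the log2 scale. The highest of them was TWIST1, at 16.0 ± 0.451 CPM in PC-3-RRM2 and 12.2 ± 0.661 CPM in PC-3-EV. Of 18 KLF and ETS paralogs of KLF5 and ELF3, 2 were called higher (ETS2 and KLF7, with log2 fold changes of 0.60 and 0.69) and 1 lower (KLF4), and the median was -0.02. Over all genes tested, 18.2% were called. ETS2 was not called without PC-3-EV replicate 1 (0.57) or without PC-3-EV replicate 2 (0.56), and without the second of these libraries the list had 1 gene called higher.

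The genes on which these factors are known to act were read next. Of 32 genes that ZEB or SNAI factors can repress, 15 were called higher, 2 lower and 15 were not called, with a median of 0.36. The shares over all genes tested were 9.97% called higher and 8.19% called lower. Without PC-3-RRM2 replicate 1, 5 genes of the list were called lower. EPCAM, an epithelial adhesion molecule, was at 103 and 117 CPM in the PC-3-RRM2 libraries, against 14.4 CPM in both PC-3-EV libraries. CDH1 was at 109 and 116 CPM in PC-3-RRM2 and 22.9 and 22.4 CPM in PC-3-EV (log2 fold change 2.31). AP1M2, the epithelium-specific subunit of a sorting adaptor, had 705 and 671 counts in PC-3-RRM2 and 7 and 2 counts in PC-3-EV. The 2 genes called lower were MAL2, an apical transport protein, and MUC1, the apical mucin. MAL2 was at 770 and 862 CPM in PC-3-RRM2 and 1617 and 1596 CPM in PC-3-EV. The summed level of the list, MAL2 included, was lower in PC-3-RRM2, at 2752 and 2636 CPM against 3053 and 3159 CPM in PC-3-EV.

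Of 18 GRHL2-activated genes, 10 were called higher, 0 lower and 8 were not called, with a median of 1.17. Each count of this paragraph is to be read beside the 9.97% of all genes tested that were called higher and the 8.19% called lower. The list holds ESRP1 and ESRP2, and without them 9 of 16 genes were called higher and 0 lower. The count of 0 lower depended on single libraries. Without PC-3-RRM2 replicate 1, and likewise without PC-3-EV replicate 1, the list had 9 genes higher and 2 lower, and 8 and 2 of the 16. ST14 (matriptase), a membrane protease of epithelia, was at 52.5 and 37.2 CPM in the PC-3-RRM2 libraries, against 0.793 and 0.752 CPM in the PC-3-EV libraries (log2 fold change 5.85, adjusted p = 2.83e-06, edgeR). The ZEB or SNAI list and the GRHL2 list share 13 genes, of which 8 were called higher and 0 lower, with a median of 1.44, or 7 higher and 1 lower with either of those libraries left out. Of the 19 genes in the ZEB or SNAI list alone, 7 were called higher, 2 lower (4 without PC-3-RRM2 replicate 1) and 10 were not called, with a median of 0.20. The difference between these parts was not tested.

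Gene counts do not show which exon was used, so the 20 genes with ESRP-regulated exons were read for their total RNA only. Of these, 1 was called higher, 2 lower and 17 were not called, with a median of -0.10. This count is near the 18.2% of all genes tested that were called, so it is not a result about the list. FGFR2, whose mutually exclusive exons ESRP proteins are best known to select, had 43 and 52 counts in the PC-3-RRM2 libraries, against 6 and 7 counts in the PC-3-EV libraries (log2 fold change 3.01, adjusted p = 0.000731, edgeR). CD44 was at 571 and 609 CPM in PC-3-RRM2 and 421 and 401 CPM in PC-3-EV, a log2 fold change of 0.52 that lay under the fold threshold. CTNND1 (p120-catenin) at -0.09 and ENAH, an actin regulator, at -0.12 did not pass the test. EXOC7, an exocyst subunit, was called lower with a log2 fold change of -0.77. Without PC-3-RRM2 replicate 2, 1 gene of the list was called lower.

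Of 18 other splicing regulators linked to the epithelial or mesenchymal state, 3 were called higher, 1 lower and 14 were not called, with a median of -0.03. The share called over all genes tested was 18.2%. MBNL3, a muscleblind-like protein, was at 10.1 and 11.1 CPM in PC-3-RRM2 and 2.51 and 2.45 CPM in PC-3-EV (log2 fold change 2.09), and its paralog MBNL2 had a log2 fold change of 0.79. RBM47, an RNA-binding protein of epithelia, was at 11.6 and 12.8 CPM in PC-3-RRM2 and 6.03 and 5.98 CPM in PC-3-EV (1.02). HNRNPM, which is known to compete with ESRP1 at CD44 exons, was at 47.7 and 52.6 CPM in PC-3-RRM2 and 90.5 and 90.9 CPM in PC-3-EV (-0.85, adjusted p = 0.000260, edgeR).

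Of 21 mesenchymal output genes, 2 were called higher, 4 lower and 15 were not called, with a median of 0.22. The share called over all genes tested was 18.2%. VIM, the mesenchymal intermediate filament, was at 1644 and 1620 CPM in the PC-3-RRM2 libraries, against 1810 and 1794 CPM in the PC-3-EV libraries, and did not pass the test (log2 fold change -0.14, adjusted p = 0.146, edgeR). COL5A1, a fibrillar collagen chain, was among the genes called higher (log2 fold change 0.67). The summed level of the list was 7331 and 7003 CPM in the PC-3-RRM2 libraries and 6547 and 6690 CPM in the PC-3-EV libraries. Without PC-3-RRM2 replicate 1 or without PC-3-EV replicate 1 the list had 1 gene called higher. CDH11, a mesenchymal cadherin, was at 191 and 196 CPM in PC-3-RRM2 and 413 and 407 CPM in PC-3-EV (-1.08). SPARC (-1.05), a matrix protein, and S100A4 (-1.20), a calcium-binding protein, were lower as well.

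**Figure D4:**
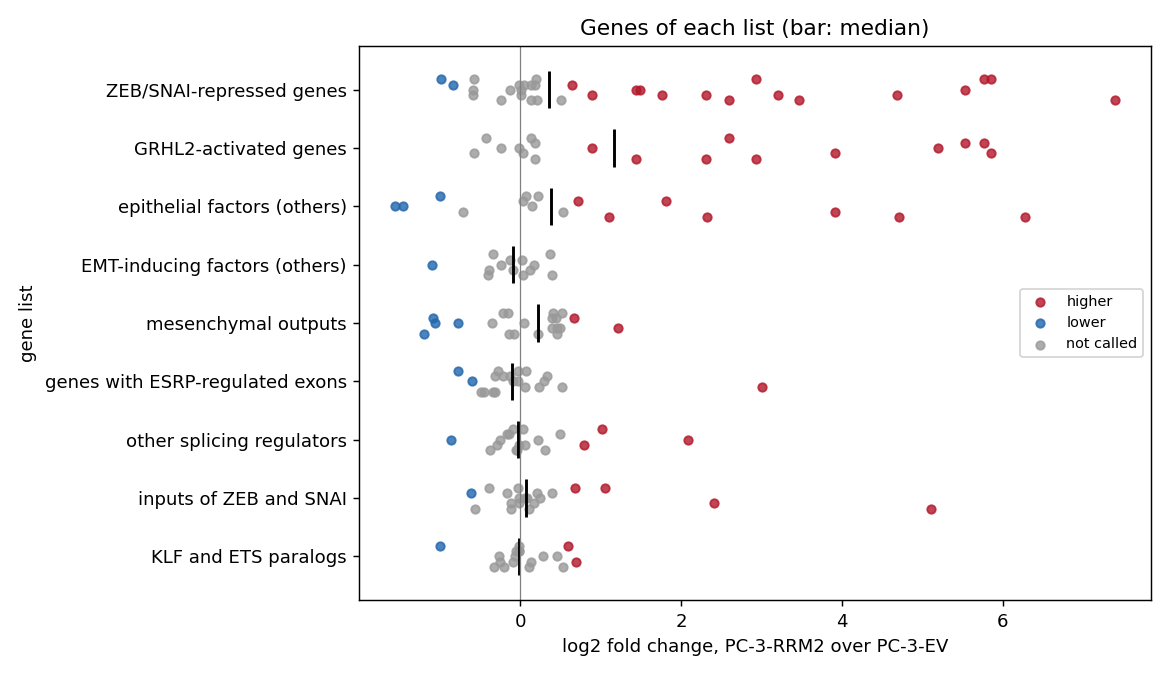
Log2 fold change, PC-3-RRM2 over PC-3-EV, of the tested genes in 9 lists, coloured by call, with a black bar at each median. The highest median, 1.17, is that of the GRHL2-activated genes, and the genes with ESRP-regulated exons lie around -0.10 with FGFR2 apart at 3.01.

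Of 20 regulators and inputs of ZEB and SNAI, 4 were called higher, 1 lower and 15 were not called, with a median of 0.07. Over all genes tested, 18.2% were called. MIR205HG (chr1:209428820-209432548), the host transcript of the miR-205-5p printed above, had 200 and 178 counts in the PC-3-RRM2 libraries, against 5 and 7 counts in the PC-3-EV libraries. Its log2 fold change was 5.12 (SE 0.281, adjusted p = 1.56e-05, edgeR), while the mature miRNA was not measured. TGFB2, a ligand that is known to induce SNAI and ZEB genes, was at 366 and 386 CPM in PC-3-RRM2 and 71.5 and 69.8 CPM in PC-3-EV (log2 fold change 2.41). Its receptor TGFBR2 was at 231 and 240 CPM in PC-3-RRM2 and 361 and 356 CPM in PC-3-EV (-0.61). TGFBR2 was not called without PC-3-RRM2 replicate 1 (-0.58), and LINC00886, at 0.68, was not called without PC-3-EV replicate 1 (0.52), a setting under which 2 genes of the list were higher and 2 lower. Without PC-3-RRM2 replicate 2, 2 genes of the list were lower.

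The genes whose levels over the 4 libraries ran most like GRHL2, the factor of largest fold change, were SLC1A6, a glutamate transporter, CA2, a carbonic anhydrase, and C3, the complement component. Likeness was the distance between log2 CPM profiles, each centred on its mean over the 4 libraries, with a prior count of 2. Over 4 libraries in 2 groups, this distance mostly compares the size of the difference between groups. The distances were 0.119 for SLC1A6, 0.225 for CA2 and 0.286 for C3. SLC1A6 had 84 and 94 counts in PC-3-RRM2 and 0 in both PC-3-EV libraries, and CA2 had 188 and 181 counts in PC-3-RRM2 and 2 in each PC-3-EV library, so their distances depend on the prior count. C3 was abundant in PC-3-RRM2, at 246 and 224 CPM, against 5.95 and 6.11 CPM in PC-3-EV.

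Genes whose start sites lay within 1 Mb of that of each factor were read last. Of 9 tested neighbours of GRHL2, 0 were called and the median log2 fold change was 0.06, while GRHL2 itself was at 5.69. Of 17 neighbours of ESRP1, 3 were called higher and 0 lower, with a median of 0.00. The nearest of them, LOC100288748 (chr8:94637285-94639468), is a long noncoding RNA on the opposite strand whose start lies 1668 bases before that of ESRP1. It had 33 and 30 counts in the PC-3-RRM2 libraries, against 0 in both PC-3-EV libraries, a ratio of 23.7 if the PC-3-EV group is set at a floor of 3 counts. The exact 95% lower limit of the ratio, which covers counting error only, was 18.7. PDP1, at 0.92, and RAD54B, at 0.70, were the other neighbours of ESRP1 called higher. For SNAI2 0 of 4 neighbours were called, for ZEB1 0 of 6 and for ZEB2 0 of 1. GRHL1 lies 170905 bases from RRM2 itself, and 2 of its 20 neighbours were called higher, RRM2 and ATP6V1C2, and 1 lower. RRM2 was also supplied by the lentiviral vector, and gene counts do not separate vector RNA from RNA of the chromosomal gene. The call of RRM2 is therefore not a result about this place. KLF5, which was lower, had 2 of 4 neighbours called higher, BORA at 1.05 and MZT1 at 0.80. Each of these counts is to be read beside the 18.2% of all genes called.

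**Figure D5:**
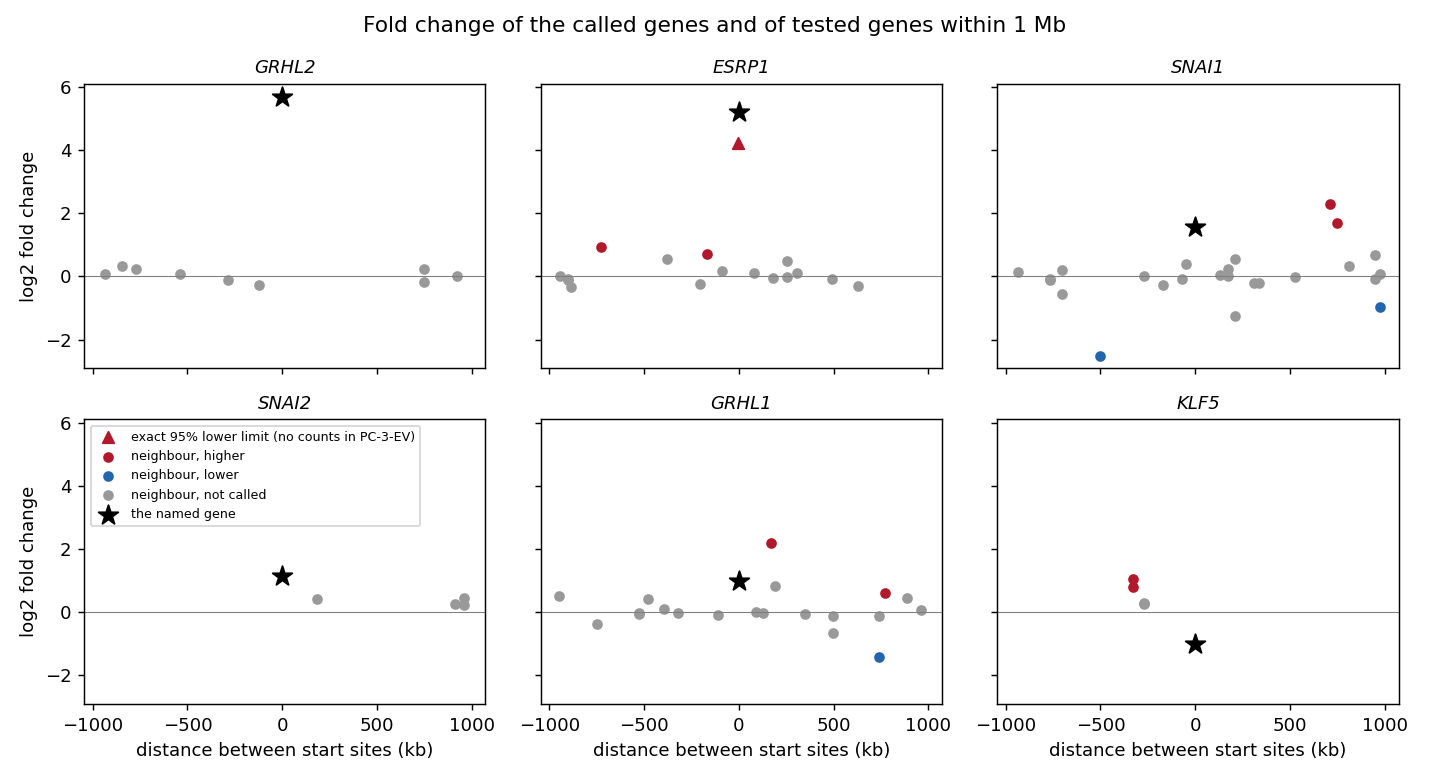
Log2 fold change, PC-3-RRM2 over PC-3-EV, of the 6 called factors (stars) and of the tested genes within 1 Mb, by the distance between start sites in kb. The triangle beside ESRP1 is LOC100288748 at the exact 95% lower limit of its ratio, 18.7-fold, and none of the 9 neighbours of GRHL2 is called.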

How the data were processed

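RNA-seq of 4 PC-3 libraries (2 x 50 bp reads, total RNA) was used. The authors quantified reads per gene in Partek Flow and deposited estimated counts that were not normalized; of the software version, aligner, annotation, build and strand setting, each is not given in the sources used here. Of the deposited values in a library, 56.0% to 57.7% were whole numbers (tolerance 1e-09), and the smallest sum over the 4 libraries was 10. Of the symbols, 23 had been turned into dates and were not named. Coordinates are those of the table. Of its symbols, 16496 matched RefSeq (GRCh38.p14), and 99.8% of these overlapped the gene of that name.

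Estimated counts were rounded, filtered with filterByExpr by group (15781 genes left), scaled by TMM and compared with the quasi-likelihood test of edgeR 4.0.16 (limma 3.58.1, R 4.3.3), with Benjamini-Hochberg adjustment. Calls needed an adjusted p below 0.05 and more than a 1.5-fold change. Standard errors were the size of the log2 fold change over the square root of F. CPM are mean ± SD over 2 libraries, and lengths are of the longest GENCODE 29 transcript. Replicates differed by more than counting noise (chi-square per degree of freedom 15.9 for the PC-3-RRM2 pair and 6.15 for the PC-3-EV pair). This comparison was simulated 5 times on 15598 genes with 200 changed. On average, 84% of 2-fold and 95.6% of 4-fold changes were recovered, and 3.8 unchanged genes were called. The simulated spread followed the level of a gene only and was the same in both groups, so these rates may not hold for the real libraries.

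The factors and gene lists were chosen with earlier results of these data known, so their counts are descriptions, and their genes overlap between lists. The 10 factors were named whatever their values, as were RRM2, CDH1, VIM, CD44, CTNND1, FGFR2, ENAH, OVOL2 and GRHL3, with up to 4 called genes of smallest p per list and the 3 genes most like the factor of largest fold change. Neighbouring and overlapping genes, other list genes named without that rule, and the markers were named after their values were seen. Some genes that this rule takes are not reported here. Alternatives were RLE and upper-quartile scaling, other count filters, DESeq2 1.42.0, glmTreat, a replicate block, a crossed block and leaving out each library. The intervals and the bound cover counting error alone, since copies made by PCR are not separate molecules.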

Additional observations from a re-analysis of the deposited data

How the results depend on the processing

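Of the 14 alternatives, none reversed a direction, and the calls of 9 of the 10 factors did not change under any. The log2 fold change of ZEB2 was 0.22 to 0.67 when 1 library was left out, and it was called at 0.67, without PC-3-RRM2 replicate 1. A test against 1.5-fold itself (glmTreat) called 1260 genes, 781 higher and 479 lower, against 2866 in the comparison as reported (1574 higher and 1292 lower), because it asks for evidence beyond that fold. The 4 fits with 1 library left out called 2562 to 3329 genes, and DESeq2 called 2343. With the replicate number as a block, 3024 genes were called and the same 6 factors; the labels do not say that the numbers pair the libraries, and deviations of same-numbered libraries had a correlation of -0.269. With the numbers crossed, chosen after seeing the data, 3253 genes and 6 factors were called. Of 35 named list genes, 28 kept their call under every alternative, and EXOC7, MBNL2, TGFBR2, LINC00886, ETS2 and KLF7 were among those that lost it under glmTreat. ETS2 also lost it without PC-3-EV replicate 1 (0.57) or 2 (0.56). The GRHL2-activated list held 2 genes called lower without PC-3-RRM2 replicate 1 or PC-3-EV replicate 1, and the list repressed by ZEB or SNAI factors held 5 without PC-3-RRM2 replicate 1. With 2 libraries a group, the difference of ZEB2 is limited by the spread between libraries. That of ESRP2 was small under every alternative, with a log2 fold change of 0.14 to 0.19. In PC-3-EV the 14 and 12 counts of GRHL2 limit the precision of its fold change.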

Other observations

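Some genes within 1 Mb of ESRP2, ELF3 and SNAI1 are described here, named after their values were seen. Of 42 tested genes around ESRP2, 4 were called higher and 2 lower. Over all genes tested 18.2% were called, so counts of this size around ESRP2, ELF3 and SNAI1 are not a result about these places. The called genes around ESRP2 include the cadherin genes CDH1 and CDH3, and CDH3 (P-cadherin, of basal cells) averaged 55.1 CPM in PC-3-RRM2 and 6.35 CPM in PC-3-EV (log2 fold change 3.12, adjusted p = 1.81e-06, edgeR). HAS3, a hyaluronan synthase in the same stretch, averaged 340 CPM in PC-3-RRM2 and 747 CPM in PC-3-EV (-1.14). Of 31 tested genes around ELF3, 4 were called higher and 3 lower. LAD1, the gene of ladinin of the basement membrane, had 1433 and 1181 counts in the PC-3-RRM2 libraries, against 27 and 25 counts in the PC-3-EV libraries (5.81, adjusted p = 9.64e-07, edgeR).

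Around SNAI1, 2 of 25 tested genes were called higher and 2 lower. PARD6B, a cell polarity protein, was at 16.8 and 19.1 CPM in the PC-3-RRM2 libraries, against 5.63 and 5.49 CPM in the PC-3-EV libraries (1.69, adjusted p = 8.93e-05, edgeR). The CPM ranges of the groups did not overlap.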
